A study of Mus musculus with 6 samples.

Results

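DN3 thymocytes are the third double-negative stage of T cell development in the mouse thymus, without CD4 and CD8 on the surface. The transcriptome described here is that of the 2 wild type control libraries among 6 libraries of sorted DN3 cells. They were chosen by their label alone, and every gene was ranked by its CPM, its counts scaled to the same total in every library (counts per 1000000 counted reads). The cells had been sorted from thymus as CD25 high and CD44 low, after CD4-, CD8- and lineage-negative gates. The other groups, used only for comparison, hold 2 libraries each: p45-/- mice, which lack the long isoforms of the transcription factor Tcf1, and Lck-cre+ Tcf1 fl/fl mice. In the latter the Lck promoter drives Cre in T-lineage cells to delete all Tcf1 proteins. The labels give no age, sex or strain. The labels do not say whether the 2 control libraries came from separate animals, so their spread may be partly technical.

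At the DN3 stage the Rag1 and Rag2 recombinase cuts the T cell receptor beta locus, and a productive beta chain pairs with the invariant pre-T-alpha chain (Ptcra) to form the pre-TCR, which signals through CD3 and the kinase Lck. Notch1 signalling from thymic epithelium keeps the cells in the T lineage, and Tcf1 (the product of Tcf7), Gata3, Bcl11b and the E proteins are the main transcription factors of this commitment. The pre-TCR is the checkpoint for further growth.

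Control 1 held 19640524 counts and control 2 held 25704385, within 19640524 to 28107031 over the 6 libraries. A level of 3 counts, the most that a count of 0 allows, was 0.153 CPM in control 1, 0.117 CPM in control 2 and 0.0662 CPM over both, and such limits cover counting error only. The controls differed by more than counting error, since over 13351 genes their chi-square divided by its degrees of freedom was 38.7. Across expressed genes, which are not independent replicates, the Pearson r of log2 CPM between them was 0.985.

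The 5 markers of the stage were all abundant in both libraries. Notch1, the receptor, was at 2886 CPM in control 1 and 1973 CPM in control 2. Tcf7 was at 2199 and 1845 CPM, and Rag1, the catalytic chain of the recombinase, at 1322 and 969.1 CPM. Il2ra, which encodes the CD25 that the sort selected for, was at 1020 and 1220 CPM, and Ptcra was at 195.7 and 183.0 CPM. By mean CPM these genes ranked 11, 14, 71, 73 and 1134 of 24015 symbols. The order changes when levels are divided by transcript length, the scale on which genes can be compared. Per kilobase, Tcf7 was at 960 CPM, Notch1 at 256, Il2ra at 254, Rag1 at 173 and Ptcra at 148. All 12 genes of the DN3 identity list, which adds Rag2, Dntt, Cd3e, Cd3g, Bcl11b, Lck and Dtx1, were above 1 CPM in both libraries, with a median of 1098 CPM against 0.672 CPM over all symbols. Dntt, the polymerase that adds bases at recombined junctions, was at 1809 and 1756 CPM. Rag2 was lower, at 82.5 and 62.8 CPM, which is 21.2 CPM per kilobase.

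The genes of the sorting gate can be set beside the labels. Cd44 was at 5.65 CPM in control 1 and 8.09 in control 2, or 2.85 CPM per kilobase against 254 for Il2ra. Transcripts of Cd4 and CD8 were present although the cells had been sorted as negative for the proteins. Cd4 was at 66.4 and 88.1 CPM, Cd8a at 79.9 and 38.5, and Cd8b1 at 51.3 and 23.4. Kit, a receptor of the stages before DN3 that the stated gate does not name, was at 56.3 and 55.9 CPM. In bulk RNA, a few cells with much of a transcript and many cells with little of it cannot be told apart.

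Expressed genes were taken as those of at least 1 CPM in both libraries, and there were 11261 of them among 24015 symbols. Another 7670 symbols, 31.9%, had no count in either library. The counts were spread over many genes of middle abundance. The 6338 genes with a mean of 10 to 100 CPM took 26.9% of counts in control 1 and 26.6% in control 2, and the 2429 genes of 100 to 1000 CPM took 56.1% and 55.7%. Only 94 genes reached 1000 CPM, and these took 15.7% and 16.5%. The median absolute log2 ratio between the libraries was 0.13 in the highest class, 0.14 from 100 to 1000 CPM, 0.17 from 10 to 100 CPM and 0.34 from 1 to 10 CPM. Counting alone would give 0.16 in the class of 1 to 10 CPM and 0.0080 in the highest class.

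**Figure D1:**
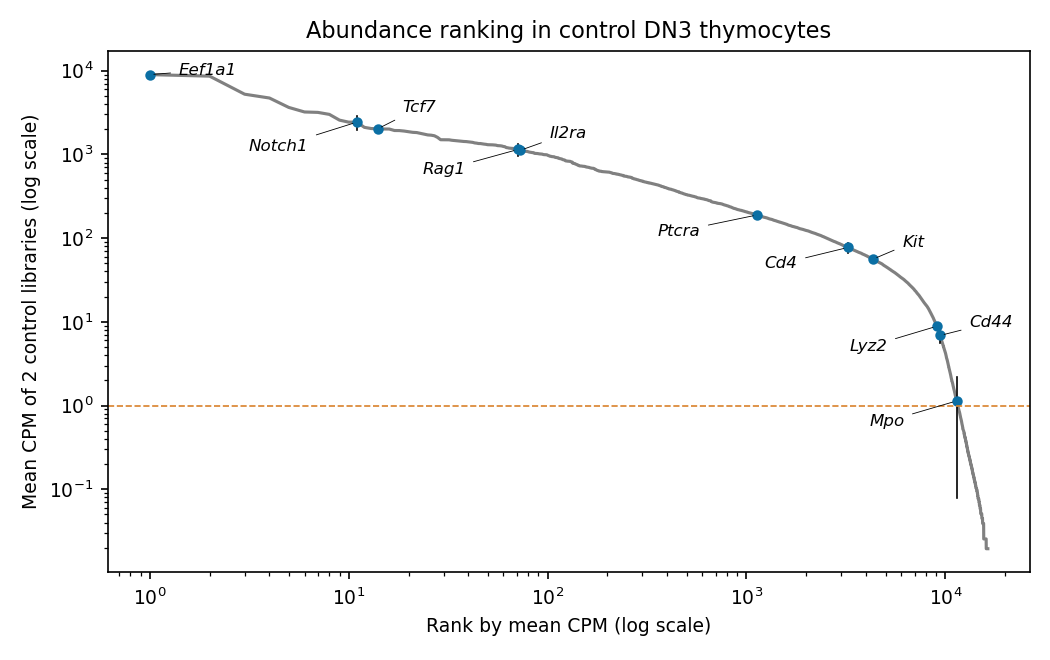
Mean CPM of the 2 control libraries (log scale) against rank by mean CPM (log scale), with vertical lines from control 1 to control 2 for the genes named and a dashed line at 1 CPM. Notch1 and Tcf7 stand at ranks 11 and 14, Ptcra at 1134, and Mpo near the dashed line with a wide gap between the libraries.

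The most abundant transcripts served protein synthesis and folding. Eef1a1, the elongation factor that delivers tRNA to the ribosome, ranked first at 8949 CPM in control 1 and 9020 in control 2. Eef2, the translocation factor, was at 5567 and 4915 CPM. The chaperones Hsp90ab1 and Hspa8 were at 4691 and 4743 CPM and at 3516 and 3771 CPM. Actb, the cytoskeletal actin, was at 3035 and 3321 CPM and Tubb5, a beta-tubulin, at 2045 and 1815. These genes differed little between the libraries, and 45 of the 50 most abundant genes were within 1.25-fold. The 50 held 21 cytosolic ribosomal proteins, 4 translation factors and 25 other genes, and they took 10.6% and 11.5% of all counts. The last of them had a mean of 1306.35 CPM and the gene of rank 51 a mean of 1305.52.

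T-lineage genes stood among the 25 others. Besides Notch1 and Tcf7, Dntt ranked 23, Thy1 (the Thy-1 surface glycoprotein) ranked 45 at 1399 and 1299 CPM, and Lck ranked 47 at 1409 and 1262 CPM. Zfp36l2, an RNA-binding protein that speeds mRNA decay, ranked 19 and was uneven, at 1234 CPM in control 1 and 2569 in control 2. Division by length moved the ranking towards short transcripts. Of the 50 highest genes per kilobase, 40 were ribosomal proteins, and 25 of the 50 were shared with the ranking by CPM. Eef1a1 stayed first at 5008 CPM per kilobase, before Rplp1, Rps14, Rpl41 and Ptma (prothymosin alpha, a chromatin-associated acidic protein) at 2995, 2918, 2900 and 2473. Cytosolic ribosomal proteins together took 7.94% and 8.35% of counts, and 81 of 84 were expressed.

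Rn45s, the precursor of ribosomal RNA, was the second gene by mean CPM and, among the 50 most abundant genes, the least even between the controls after Lars2. It took 0.482% of counts in control 1 and 1.24% in control 2. The share was 1.43% and 1.51% without p45, and 2.52% and 1.22% without Tcf1. Lars2, the mitochondrial leucyl-tRNA synthetase, was at 797 and 2107 CPM in the controls, at 2026 and 2175 CPM without p45 and at 4411 and 2088 CPM without Tcf1. The library with the lowest Rn45s also had the lowest Lars2 and the one with the highest had the highest. Lars2 was picked with its values known, and whether reads of the 2 genes are separated was not tested.

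Transcription factors were read from lists and symbol families that hold 480 symbols in the files. Of these, 234 (48.8%) were expressed, near the 46.9% of all symbols, 72 reached 100 CPM and 116 had no count. All 34 genes of the T-lineage list, which also holds the RNA-binding proteins Zfp36l1 and Zfp36l2, were expressed, with a median of 187 CPM and 22 members at or above 100 CPM. By CPM the highest of the listed genes were Notch1, which acts in the nucleus once cleaved, Tcf7 and Zfp36l2. Next was Ets1, a founding ETS factor, at 1061 CPM in control 1 and 1289 in control 2. Bcl11b, the zinc finger factor of T-lineage commitment, was at 1260 and 889.5 CPM. Per kilobase the order changed, with Tcf7 at 960 CPM, Zfp36l2 at 539, Bcl11b at 372, Ets1 at 333 and Notch1 at 256. Myb was at 784 and 884 CPM, and the chromatin organiser Satb1 at 761 and 801 CPM. Ikzf1 (Ikaros) was at 583 and 523 CPM, Sox4 at 525 and 419, and Lef1, the relative of Tcf7, at 485 and 436. The E proteins Tcf3 and Tcf12 were at 512 and 432 CPM and at 451 and 484 CPM. Of these 12 genes Zfp36l2, Ets1, Myb, Satb1 and Tcf12 were higher in control 2 and the others in control 1, all by less than 2-fold except Zfp36l2.

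Families differed in how many members were present. All 4 RUNX and CBF-beta genes, all 5 Ikaros genes, all 7 STAT genes and all 10 E2F and DP genes were expressed, as were 17 of 26 ETS genes and 39 of 45 BCL and ZBTB genes. In the GATA family 1 member held nearly all counts. Gata3, needed for T cell commitment, was at 160.6 and 149.7 CPM of a family sum of 164.5 and 151.9, while Gata2, Gata4 and Gata6 had no count. Among the TCF and LEF genes 2 were abundant, since Tcf7 was at 960 CPM per kilobase and Lef1 at 137, against 3.22 for Tcf7l2 and 0.687 for Tcf7l1. Several developmental families of other tissues were near empty. None of 9 PAX genes and none of 26 LIM and NKX homeobox genes was expressed, and 2 of 34 tissue bHLH genes were. Of 39 HOX genes 5 were expressed and 25 had no count, with Hoxa7 the highest at 10.1 and 10.8 CPM. Of 44 forkhead genes 14 were expressed.

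**Figure D2:**
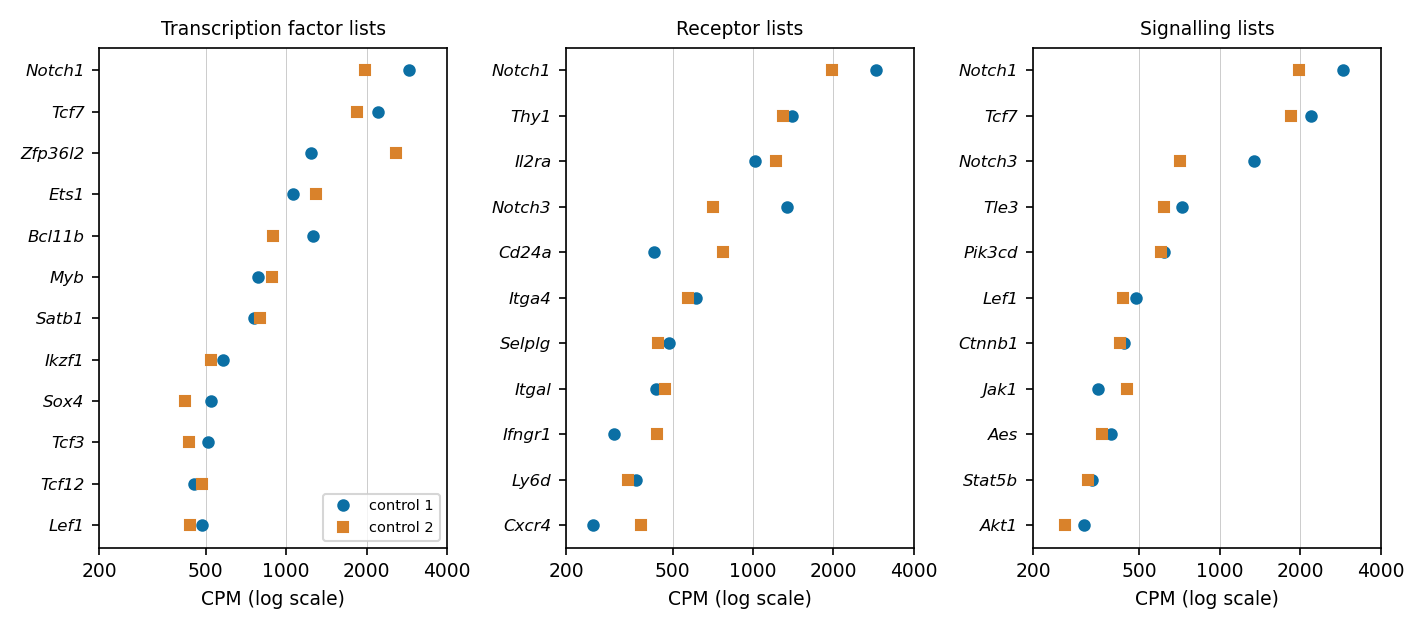
CPM (log scale) of genes that are among the 12 highest by mean CPM of the listed transcription factors, receptors or signalling genes, with circles for control 1 and squares for control 2. Notch1, the same gene listed under every kind, leads each panel by CPM but not per kilobase. Zfp36l2 and Notch3 show the widest gaps (1234 against 2569 and 1340 against 708 CPM), and Pik3cd and Ctnnb1 nearly coincide.

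Of 311 listed receptor symbols 136 (43.7%) were expressed, near the 46.9% of all symbols, and 26 reached 100 CPM. Among the 4 Notch receptors, Notch3, itself a Notch1 target in thymocytes, was at 1340 CPM in control 1 and 708 in control 2, Notch2 at 130 and 108, and Notch4 at 1.53 and 1.63. Per kilobase they ran from 256 CPM for Notch1 through 128 and 11.3 to 0.24 for Notch4. The adhesion receptors Itga4 and Itgal, integrin alpha chains, were at 610 and 572 CPM and at 434 and 468 CPM. Selplg, the P-selectin ligand used in thymus seeding, was at 487 and 442 CPM. Cd24a, a surface antigen of immature thymocytes, was at 425 and 771 CPM, and Ly6d at 364 and 341 CPM.

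The cytokine receptor list, picked gene by gene, stood above the level of all symbols, and the chemokine receptor family, taken by symbol pattern, did not. The 2 sets were thus not chosen alike. The interleukin receptor family, also taken by symbol pattern, had 27 of 36 genes (75%) expressed and a median of 4.72 CPM. Of 40 cytokine receptor genes 30 (75%) were expressed and 8 reached 100 CPM, with a median of 20.5 CPM, beside 46.9% expressed and a median of 0.672 CPM over all symbols. After Il2ra came Ifngr1, the interferon gamma receptor chain, at 301 and 438 CPM, Il17ra at 264 and 267, and the common gamma chain Il2rg at 177.8 and 224.1. Il7r, the receptor for the cytokine that sustains early thymocytes, was at 101 and 95.5 CPM. Of 23 chemokine receptor genes 8 (34.8%) were expressed and 2 reached 100 CPM, with a median of 0.654 CPM. These were Cxcr4, at 253 and 382 CPM, and Ccr9, at 146 and 191 CPM, both of which place thymocytes within the thymus. Of 34 killer lectin receptor genes 1 was expressed, as was 1 of 31 receptor genes for muscarinic, adrenergic, dopamine and serotonin ligands and 4 of 10 Frizzled genes.

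Of 143 listed signalling symbols 130 (90.9%) were expressed, with a median of 70.2 CPM. All 27 genes of the pre-TCR and CD3 list were expressed, 23 of them at or above 100 CPM. The CD3 chains were uneven per length, with Cd3g at 927 CPM per kilobase, Cd3e at 567, Cd3d at 209 and Cd247 (the zeta chain) at 128. Each differed by no more than 1.2-fold between the libraries, with Cd3d at 337 and 339 CPM and Cd3g at 863 and 1034 CPM. Downstream of Lck, the adaptor Lat was at 661 and 657 CPM. The kinases Zap70 and Syk were near each other in CPM, at 112 and 101 and at 115 and 102, and stood at 47.5 and 20.7 CPM per kilobase. All 15 genes of V(D)J recombination were expressed, from the end-joining factor Nhej1 at 3.61 and 4.08 CPM to Dntt.

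In the Notch pathway 33 of 38 genes were expressed. The cells carried the receptors, the nuclear partner Rbpj (102 and 113 CPM) and the fringe glycosyltransferases that tune ligand choice (Lfng, Mfng and Rfng at 54.8, 84.6 and 43.2 CPM in control 1 and 60.7, 85.5 and 33.1 in control 2). The ligands were low or at the limit of counting. Dll4, the ligand that thymic epithelium presents, had 5 counts in control 1 and 1 in control 2, and Jag2 was the highest ligand at 27.3 and 17.5 CPM. Targets differed in level, with Hes1 at 97.6 and 123.3 CPM, Dtx1 at 155 and 142, Nrarp at 11.8 and 12.4 and Hes5 at 4.94 and 3.38. In the WNT list 29 of 37 genes were expressed, led after Tcf7 by the corepressor Tle3 at 720 and 619 CPM and, after Lef1, by Ctnnb1 (beta-catenin) at 437 and 422 CPM. All 18 JAK and STAT genes and all 25 PI3K, AKT and mTOR genes were expressed. Jak1 was at 349 and 451 CPM, Stat5b at 332 and 320, and the lymphoid PI3K subunit Pik3cd at 616 and 603.

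Genes of other cell types were sought in lists for blood, thymic and body cells. Of 252 symbols 95 (37.7%) were expressed, a count that includes genes thymocytes share, beside 46.9% of all symbols. Thus the B cell list is led by Rag1, the endothelial and fibroblast list by Thy1 and the erythroid list by Tfrc, the transferrin receptor of growing cells. Defining B cell genes were low and uneven, with Cd79a at 5.50 CPM in control 1 and 0.739 in control 2, and Ms4a1 at 1.99 and 0.195. Pax5, the B cell commitment factor, had 9 counts in control 1 and none in control 2. Other B cell list members were even, such as the ETS factor Spib at 43.8 and 41.7 CPM and Cd79b at 27.1 and 27.6 CPM.

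Granulocyte and macrophage genes were low but mostly had counts, and mast cell and red cell genes were mostly low or without counts. Macrophage genes had a summed level of 34.7 CPM in control 1 and 34.6 in control 2 over 19 symbols, led by the lysozyme Lyz2 at 8.45 and 9.26 CPM. Of the 19, 9 (47.4%) were expressed and 2 (10.5%) had no count, beside 46.9% and 31.9% of all symbols. Their median was 1.09 CPM against 0.672 CPM over all symbols, so this list was not emptier than the rest. Csf1r, the macrophage growth factor receptor, was at 1.53 and 0.661 CPM, and the scavenger receptors Marco and Msr1 had no count. Of 17 granulocyte genes only Cxcr2 was expressed, at 7.64 and 6.77 CPM, and 1 (5.88%) had no count. The list's median was 0.102 CPM. The protease Elane had 1 count over both libraries. Mpo, myeloperoxidase, had 43 counts in control 1 and 2 in control 2. Of 17 megakaryocyte and mast cell genes 11 had no count, among them Ppbp and Fcer1a, while Cpa3, the mast cell carboxypeptidase, was at 7.18 and 18.4 CPM. Slc4a1 and Car1 of the red cell had no count.

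Lymphoid neighbours gave a mixed picture. In the NK and innate lymphoid list 6 of 21 genes (28.6%) were expressed, beside 46.9% of all symbols. The granzyme Gzma, a killer cell protease, led the list at 130 and 139 CPM. The NK receptor Ncr1 had 1 count over both libraries, the killing protein perforin (Prf1) was at 1.07 and 1.01 CPM, and Klra1 and Klra8 had none. Gamma-delta T cell genes were present in part, with the scavenger receptor family genes 5830411N06Rik and Cd163l1 at 179 and 202 CPM and at 72.0 and 54.0 CPM, and Sox13 at 81.2 and 67.2 CPM. Il17a and Il2 had no count. In the early progenitor list 13 of 22 genes (59.1%) were expressed. The Ikaros relative Ikzf2 led it at 163 and 170 CPM and the ETS factor Erg was at 35.6 and 33.7, while Spi1 (PU.1) was at 2.60 and 1.67, Lmo2 at 0.458 and 0.389 and Gata2 at 0. All 12 genes of the double-positive thymocyte list were expressed. It shares Rag1, Rag2 and Dntt with the DN3 list, and its highest other member was Arpp21, a cyclic AMP-regulated phosphoprotein gene, at 576 and 496 CPM.

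Listed genes of non-blood thymus cells ranged from no count to abundant, and which cells their transcripts came from was not tested. In the thymic epithelial list 31.6% of genes were expressed and 47.4% had no count. In the fibroblast and endothelial list the shares were 26.3% and 31.6%, beside 46.9% and 31.9% of all symbols. Of 19 thymic epithelial genes 9 had no count, including the epithelial master factor Foxn1, Krt5, Krt14 and Il7. Psmb11, the cortical epithelial proteasome subunit, was at 2.19 and 1.28 CPM. The adhesion molecule Epcam was an exception, at 69.3 and 72.8 CPM. Pecam1, of endothelium and some blood cells, was at 96.9 and 93.5 CPM and the platelet-derived growth factor receptor Pdgfrb at 47.8 and 53.8, while Pdgfra, Tie1, Emcn, Cldn5, Vwf and Lum had no count. Among 23 liver, muscle and brain genes 10 had no count, among them Alb (albumin), Des and Neurod1. Mbp, myelin basic protein, was at 180.4 and 195.4 CPM. Of the B cell, NK, myeloid, red cell, thymic stroma and body tissue lists, those of B cells, macrophages and dendritic cells had a median above 1 CPM, at 1.08, 1.09 and 3.57 CPM.

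**Figure D3:**
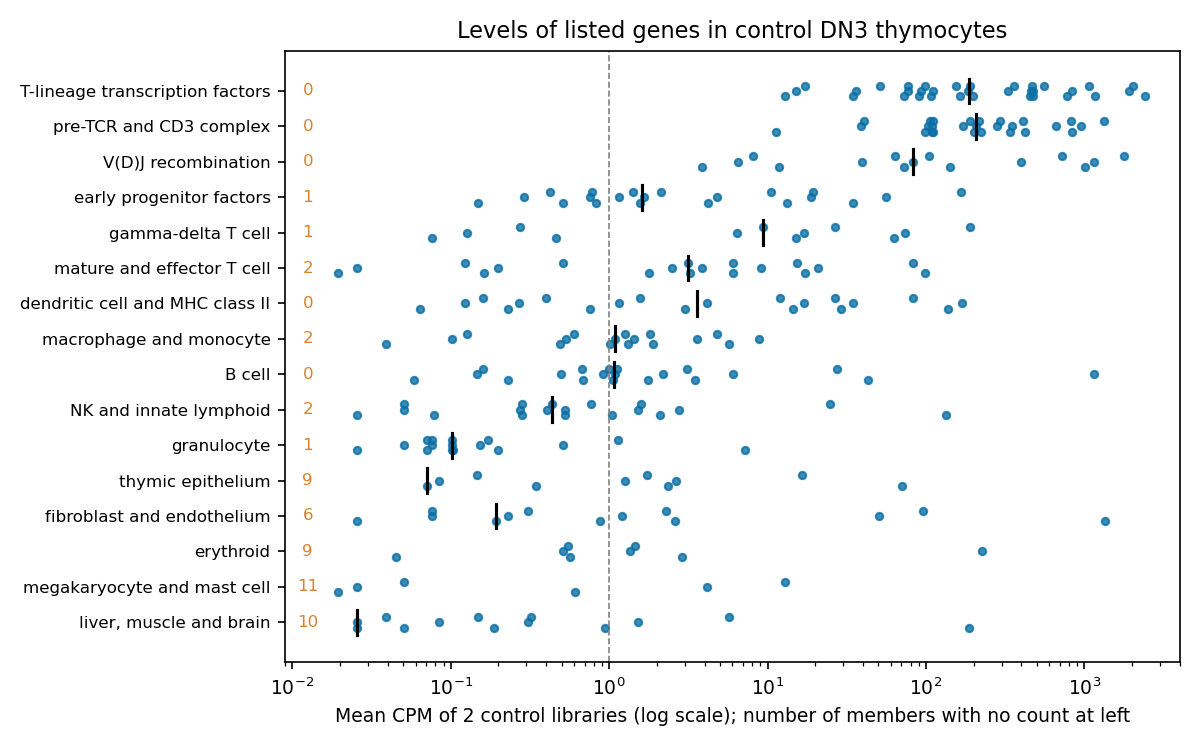
Mean CPM of the 2 control libraries (log scale) for each gene of the T-lineage and other-lineage lists, 1 point a gene, with a bar at the list's median where it is above 0 and, at left, the number of genes with no count. The T-lineage, pre-TCR and V(D)J lists lie to the right of the dashed line at 1 CPM, and the NK, granulocyte, erythroid, mast cell, epithelial, endothelial and body tissue lists have their medians to its left, with single genes such as Mbp, Epcam and Gzma far to the right.

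Families of other organs ranged from silent to partly present. All 51 keratin-associated protein genes and 59 of 60 defensin genes had no count. Of 52 keratin genes 3 were expressed and 37 had no count, and of 80 cytochrome P450 genes 8 were expressed and 62 had no count. Of 44 collagen genes 7 were expressed and 12 (27.3%) had no count, beside 31.9% of all symbols. Of 1492 sensory receptor symbols (odorant, vomeronasal and taste) 1433 had no count and 9 were expressed. The highest was Olfr613 at 54.4 and 57.7 CPM, while its annotated neighbours Olfr615 and Olfr616 had no count. Vmn1r58 was at 27.2 and 25.6 CPM, also beside genes without counts. Some of the 9 overlap other genes in the annotation of build GRCm38, such as Olfr524 with Cd163l1 and Tas1r3 with Dvl1, and the labels give no strand setting for the counts. Their values were known when these sensory genes were picked.

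A count of 0 was not always a silent gene. Rpl26 (a ribosomal protein), Ndufs5 (respiratory chain) and Eif3j1 (a translation factor), which nearly all cells use, had no count in either library. They were picked with their values known. How reads that match several places were counted is not stated by the labels. The same caution holds for the 6 globin symbols Hba-a1, Hba-a2, Hbb-b1, Hbb-b2, Hbb-bs and Hbb-bt, near-identical copies that all had no count. Replication-dependent histones were low too, with 6 of 65 expressed; most of their transcripts lack a poly(A) tail, and the labels do not say how RNA was selected, so its part was not tested.

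Promoter sequence was a feature that the ranking had not used. RefSeq promoters of build GRCm38.p6 were matched by symbol for 16772 of 24015 genes, and in the 250 bases before the start the CpG ratio was computed, the CG pairs seen over those that the C and G content would give. The share of genes with a ratio of at least 0.6 was 10.4% among genes with no count, 31.8% below 1 CPM, 46.5% from 1 to 10, 73.4% from 10 to 100, 78.5% from 100 to 1000 and 84.8% at or above 1000 CPM. Odorant receptors had 0.862% and ribosomal proteins 84.1%. The pre-TCR and CD3 list and the DN3 identity list, which share genes such as Lck, stood below their abundance classes. T-lineage transcription factors stood nearer theirs. Of 24 pre-TCR and CD3 genes with a promoter 20.8% passed, and of the 12 DN3 identity genes 25.0%, against 69.2% of 26 T-lineage transcription factors and 44.9% of all. With the first listed start alone the pre-TCR share was 33.3% and the DN3 identity share the same as before. These shares are descriptions across genes, which are not replicates, and no test was made.

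**Figure D4:**
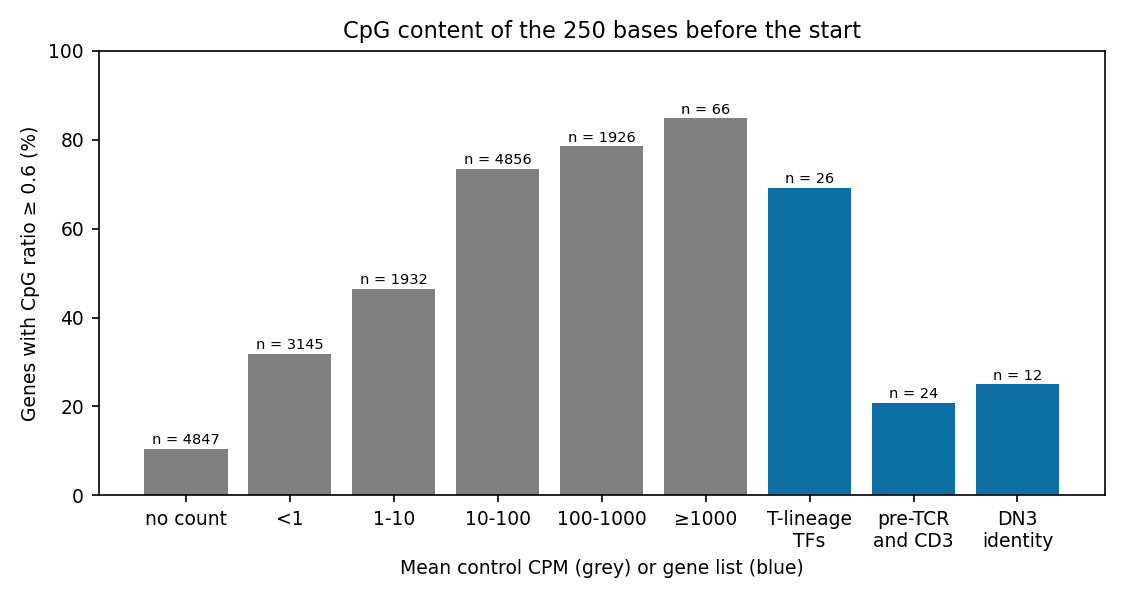
Percent of genes whose 250 bases before the start have a CpG ratio of at least 0.6, by class of mean control CPM (grey) and for 3 gene lists (blue), with n the genes that have a promoter sequence. The share rises from 10.4% to 84.8% over the classes, and the pre-TCR and DN3 identity lists stand at 20.8% (33.3% with the first listed start alone) and 25.0%.

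Single promoters are given as examples and do not stand for their lists. Below, the 250 bases before the start are given 5′ to 3′ on the gene's strand with every CG pair in capitals, for 3 genes of pre-TCR assembly and for 2 genes of general use. They come from RefSeq, build GRCm38.p6, at chr17:46763713-46763962 (minus strand) for Ptcra, chr2:101649533-101649782 (minus) for Rag1, chr9:44981536-44981785 (plus) for Cd3d, chr5:115559217-115559466 (plus) for Rplp0 and chr1:86526307-86526556 (plus) for Ptma. Where a gene has several starts, the first listed is shown.
Ptcra: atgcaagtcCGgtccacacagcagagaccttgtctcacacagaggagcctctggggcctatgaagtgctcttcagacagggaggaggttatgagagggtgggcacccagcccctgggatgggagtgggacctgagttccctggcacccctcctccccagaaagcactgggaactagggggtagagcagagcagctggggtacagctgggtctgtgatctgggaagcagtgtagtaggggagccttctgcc
Rag1: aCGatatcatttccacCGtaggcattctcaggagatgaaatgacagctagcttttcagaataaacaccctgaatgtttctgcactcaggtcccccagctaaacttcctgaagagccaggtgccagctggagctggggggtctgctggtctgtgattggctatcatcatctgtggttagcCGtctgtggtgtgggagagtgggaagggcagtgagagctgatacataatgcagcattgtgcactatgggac
Cd3d: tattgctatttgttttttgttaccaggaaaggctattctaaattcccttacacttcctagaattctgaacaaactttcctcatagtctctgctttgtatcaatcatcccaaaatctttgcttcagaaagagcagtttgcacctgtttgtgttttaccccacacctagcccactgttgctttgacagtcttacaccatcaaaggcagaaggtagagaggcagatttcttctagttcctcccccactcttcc
Rplp0: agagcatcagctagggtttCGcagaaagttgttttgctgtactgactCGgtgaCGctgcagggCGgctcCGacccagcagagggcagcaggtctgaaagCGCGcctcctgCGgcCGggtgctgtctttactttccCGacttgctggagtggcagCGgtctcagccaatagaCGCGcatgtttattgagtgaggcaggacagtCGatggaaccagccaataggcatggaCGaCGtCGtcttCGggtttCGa
Ptma: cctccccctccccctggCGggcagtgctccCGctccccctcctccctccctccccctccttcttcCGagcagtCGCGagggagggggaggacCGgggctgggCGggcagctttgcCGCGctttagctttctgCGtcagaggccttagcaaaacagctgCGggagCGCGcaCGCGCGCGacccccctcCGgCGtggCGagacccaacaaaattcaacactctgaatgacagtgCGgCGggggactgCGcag
Ptcra has 1 CG pair in this window and a ratio of 0.0451 at 60.4% G and C, Rag1 has 3 and 0.190, and Cd3d has none. These 3 lie below the median ratios of the lists, 0.284 for DN3 identity and 0.288 for pre-TCR and CD3. Rplp0 has 19 with a ratio of 0.919 at 58.0% G and C, and Ptma has 23 with 0.778.

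Motifs of 3 factors of the stage were searched as letters on both strands in the same window of the first start. The E protein motif CAGNTG was in 62.5% of the pre-TCR and CD3 promoters and in 41.8% of all promoters of that length. The Tcf1 motif CTTTGA was in 25.0% of them and in 13.2% of all. The letters TGGGAA, which Rbpj binds and which overlap the Ikaros motif, were in 33.3% of them, in 41.7% of the 12 DN3 identity promoters and in 21.0% of all. The other shares in these lists were below those of all promoters. CAGNTG and CTTTGA were in 33.3% and 8.33% of the DN3 identity promoters, and the 3 motifs were in 30.8%, 7.69% and 15.4% of those of T-lineage transcription factors. In the sequences shown, Ptcra and Rag1 hold CAGNTG and TGGGAA, Cd3d holds CAGNTG and CTTTGA, Ptma holds CAGNTG, and Rplp0 holds none of the 3. A match is a run of letters and not a bound site, and promoters of different base composition hold short motifs at different rates.

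The 2 control libraries were also compared with each other, 1 against 1 and so without a test, among 9045 genes of at least 10 CPM in the higher. At least 2-fold differences were found in 141 genes (1.56%), of which 95 were higher in control 2 (1.05%) and 46 higher in control 1 (0.509%). None of the 12 DN3 identity genes was among them. The immediate-early and heat shock list, genes switched on within minutes of stress or stimulation, had 16 of 22 members higher in control 2 and none higher in control 1, with a median log2 ratio of 1.60. Fos was at 27.7 CPM in control 1 and 552 in control 2, Fosb at 28.1 and 539, the inducible chaperone Hspa1a at 1.63 and 35.4, and the activation marker Cd69 at 5.24 and 128. In the other libraries Fos was at 4.59 and 5.18 CPM (p45-deficient) and at 294 and 599 CPM (Tcf1-deficient). For these genes the control mean describes neither library, and Jun at 145 and 630 CPM and Junb at 95.5 and 689 CPM belong to the same list. The mature and effector T cell list, of which 12 of 21 genes were expressed, was higher in control 2 as well, at a summed 185 CPM in control 1 and 357 in control 2. Of its 6 genes at 10 CPM or more 5 were at least 2-fold higher there and none in control 1, with a median log2 ratio of 1.15. Ctla4, an inhibitory receptor of activated T cells, was at 29.5 and 135.5 CPM, and Klf2, a factor of mature T cells, at 10.6 and 31.0 CPM. Its defining cytokines Il2 and Il17a had no count.

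Control 1 was the higher in another set. Cd8a and Cd8b1 were 2.08-fold and 2.20-fold higher there, while Cd4 was higher in control 2, at 66.4 CPM in control 1 and 88.1 in control 2. The MHC class II genes Cd74, H2-Aa, H2-Ab1 and H2-Eb1 were all at least 2-fold higher in control 1, with Cd74 at 51.5 and 17.7 CPM, and these were 4 of 9 genes of the dendritic cell and MHC class II list at 10 CPM or more. Other members of that list were higher in control 2 by less than 2-fold, such as Ccr9 at 146 and 191 CPM and Tcf4 at 75.4 and 89.4 CPM. Cd79a and Ms4a1 were higher in control 1 too, at the levels given above. The dendritic cell gene Clec9a had 9 counts in control 1 and none in control 2, and Siglech had 4 and 3. The summed level of the dendritic list was 560 CPM in control 1 and 509 in control 2, and that of the double-positive list 4410 and 3937. The part of other cells in these differences was not tested.

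The longest transcripts differed in direction from the rest in their 2-fold differences, while the class medians differed little. Of 376 genes longer than 8 kilobases 12 were at least 2-fold higher in control 1 and none in control 2, with a median log2 ratio (control 2 over control 1) of -0.05. In the 4 shorter classes, up to 1, 2, 4 and 8 kilobases, more genes were higher in control 2, 6 against 2, 24 against 10, 48 against 14 and 16 against 8. Their medians, from the shortest class up, were 0.010, -0.030, -0.026 and -0.029, beside -0.03 over all 9045 genes. The shortest class thus had the highest median and the longest the lowest. The histone methyltransferase Kmt2d, of 19823 bases, was at 1570 CPM in control 1 and 482 in control 2, and Hivep3, of 11838 bases, at 348 and 104. The labels give no measure of RNA quality, and its part was not tested.

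**Figure D5:**
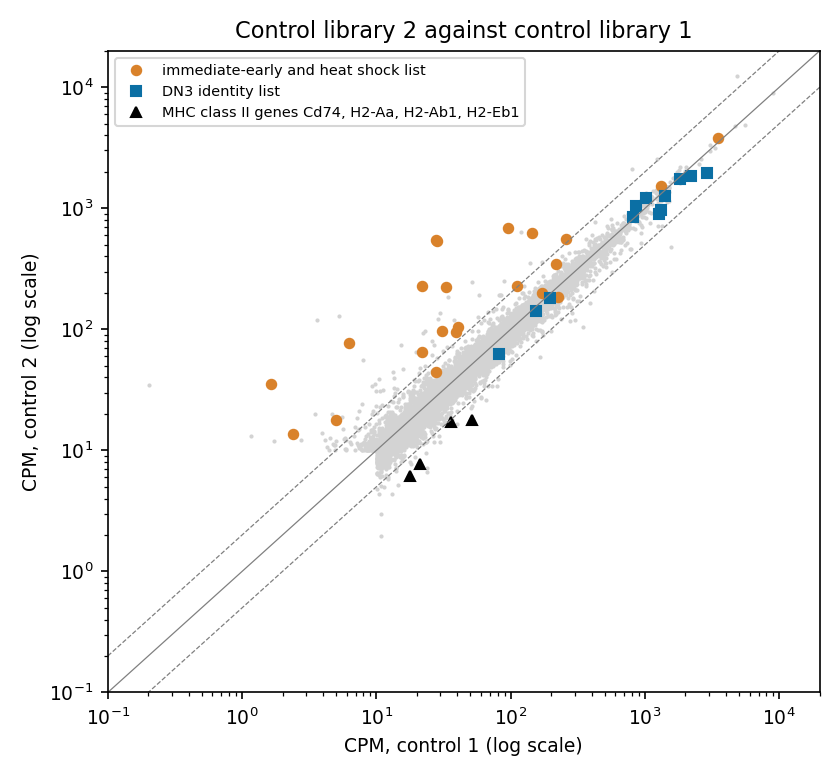
CPM in control 2 against CPM in control 1 (both log scale) for genes of at least 10 CPM in the higher library, with dashed lines at 2-fold. Immediate-early and heat shock genes (orange) lie above the upper line in 16 of 22 cases, the 12 DN3 identity genes (blue squares) lie between the lines, and 4 MHC class II genes (black triangles) lie below the lower line.

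The control levels were set against the mutants with edgeR's quasi-likelihood test over 12939 genes. In p45-deficient cells 16.0% of genes passed an adjusted p of 0.05, 8.47% higher and 7.55% lower. Of the 34 genes in the T-lineage transcription factor list 3 passed, Lef1 higher and the RNA-binding Zfp36l1 and Zfp36l2 lower. Of 27 pre-TCR and CD3 genes 1 passed (lower), of 15 V(D)J genes 3 (higher), of 34 tested Notch pathway genes 8 (3 higher, 5 lower), of 37 tested cytokine receptor genes 7 (2 higher, 5 lower) and of 20 tested early progenitor genes 9 (1 higher, 8 lower). In this order the median log2 fold change was -0.06, 0.04, 0.46, -0.30, 0.03 and -2.32, beside 0.05 over all tested genes. With control 1, control 2, p45-deficient 1, p45-deficient 2, Tcf1-deficient 1 or Tcf1-deficient 2 left out, 3.31%, 3.94%, 1.90%, 2.84%, 28.8% and 28.9% of all genes tested passed. In the same order there were 3, 3, 1, 1, 16 and 14 calls in the T-lineage list, 0, 0, 0, 0, 9 and 9 in the pre-TCR list and 1, 1, 1, 1, 7 and 7 in the V(D)J list. There were 3, 7, 2, 5, 13 and 14 in the Notch list, 4, 3, 3, 3, 11 and 12 in the cytokine receptor list and 2, 3, 4, 4, 12 and 11 in the early progenitor list.

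The calls touched several of the abundant genes described above. Zfp36l2 was at 1234 and 2569 CPM in control and 295 and 329 CPM in p45-deficient libraries, with no overlap, and fell by 2.51 on the log2 scale (SE 0.42, edgeR adjusted p = 0.0187). Its relative Zfp36l1 fell by 0.72 (SE 0.15, adjusted p = 0.0245). Lef1 was at 485 and 436 CPM in control and 938 and 963 in p45-deficient libraries, and rose by 1.15 on the log2 scale (SE 0.11, adjusted p = 0.0021). Hmgb2, a DNA-bending cofactor of the recombinase, was at 720 and 731 CPM in control and at 1577 and 1544 CPM in p45-deficient libraries, and rose by 1.21 on the log2 scale (SE 0.11, adjusted p = 0.0019). Tle3 fell by 1.11 (SE 0.12, adjusted p = 0.0035) and Pik3cd fell by 1.09 (SE 0.13, adjusted p = 0.0041). In the Notch pathway Notch2 fell by 0.99 (SE 0.15, adjusted p = 0.0089) and Jag2 fell by 2.39 (SE 0.28, adjusted p = 0.0041). Targets of the pathway went both ways. Dtx1 was at 155 and 142 CPM in control and at 485 and 416 CPM in p45-deficient libraries, and rose by 1.71 on the log2 scale (SE 0.14, adjusted p = 0.0019). Nrarp rose by 1.61 (SE 0.26, adjusted p = 0.0103), while Hes5 fell by 2.37 (SE 0.51, adjusted p = 0.0248). Among early progenitor genes Kit was at 56.3 and 55.9 CPM in control and 5.37 and 6.37 CPM in p45-deficient libraries, and fell by 3.15 on the log2 scale (SE 0.21, adjusted p = 0.00093). Hoxa7 was at 10.1 and 10.8 CPM in control and 0.107 and 0.229 CPM in p45-deficient libraries (adjusted p = 0.0018). Lef1, Hmgb2, Tle3, Pik3cd, Jag2, Dtx1, Kit and Hoxa7 passed under all 13 other settings of the test. Zfp36l2 did not pass when either p45-deficient library was left out or when low counts were not filtered (highest edgeR adjusted p = 0.182). Zfp36l1 and Nrarp passed under 10, Notch2 under 11 and Hes5 under 9 of the 13.

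The 5 markers did not pass in either mutant. In p45-deficient against control the log2 fold change was 0.29 for Tcf7 (SE 0.11, edgeR adjusted p = 0.115), 0.61 for Ptcra (SE 0.21, adjusted p = 0.088), 0.52 for Rag1 (SE 0.26, adjusted p = 0.221), 0.43 for Il2ra (SE 0.35, adjusted p = 0.447) and -0.30 for Notch1 (SE 0.20, adjusted p = 0.352). Tcf7 counts do not separate its isoforms, so they do not check the p45 label. In Tcf1-deficient against control 0 of 12939 genes passed (0%), although 1024 had an unadjusted p under 0.05, and DESeq2 called 145. There Tcf7 was at 2199 and 1845 CPM in control and at 974 and 985 CPM in Tcf1-deficient libraries, without overlap, and the log2 fold change was -0.995 (SE 0.11, edgeR adjusted p = 0.0762). A p above the threshold does not show that these genes were equal. The 2 Tcf1-deficient libraries also differed from each other. Among the gate genes Cd4 was at 370 CPM in replicate 1 and 46.5 in replicate 2, and Il2ra at 917 and 2008. The part of this spread in the count of 0 was not tested.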

How the data were processed

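RNA was measured by sequencing in 6 libraries of sorted DN3 thymocytes, 2 per genotype, grouped by their labels. The deposited values are whole-number read counts per gene symbol, 24015 symbols a library, which the authors counted and did not normalise. Per the submitters' processing notes the tools were TopHat2, featureCounts 1.5.0-p3 and DESeq2 3.4 and the build mm9; the notes give no role or order, annotation or strand setting.

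CPM was each count over its library total. Lengths, found for 23598 symbols, were the median spliced length of RefSeq-linked transcripts in GENCODE M21 (build GRCm38), which can differ from the transcripts present in these cells. Promoters came from the RefSeq table of GRCm38.p6. Mutants were compared with control in edgeR 4.0.16 (R 4.3.3): filterByExpr, TMM, 1 mean per group over all 6 libraries, robust quasi-likelihood F test, two-sided, Benjamini-Hochberg adjustment at 0.05, SEs from the F statistic. DESeq2 1.42.0, other scalings, no filter, leaving out each library and a replicate block were the alternatives. The edgeR script was tested on simulated data with 200 changed genes. With 2 libraries a group, no test of 1 gene by permutation was used.

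Members, gene lists and families were chosen with earlier results of these data known. Genes named are the markers, the highest by CPM, per length and per list, list genes with no count, the gate genes, the most uneven between the controls and called list members. Others named are members of the same lists or were picked with their values known. Some of these genes are not reported here.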

Additional observations from a re-analysis of the deposited data

How the results depend on the processing

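The counts of expressed genes and listed regulators stayed within 1.5 times under a threshold of 0.5 or 5 CPM, TMM scaling and either control library alone, except that 57 listed genes of other lineages, not 95, reached 5 CPM. Genes with no count stayed within 1.5 times in either library alone or with 1 count allowed. At 50 CPM or more 64 genes differed at least 2-fold between the controls, not 141. TMM scaling moved all 188 named genes by no more than the spread of the 2 libraries, though those without counts could not move. Without Rn45s this held for 181 of 187 named genes. For p45-deficient against control 2073 genes passed in edgeR, 3907 with only these 2 groups fitted, and 258 to 3923 with 1 library left out. The split of higher and lower calls was 1096 and 977 with TMM, 893 and 1092 with DESeq2 size factors, 820 and 1175 with upper quartile scaling and 721 and 1281 with library totals. For Tcf1-deficient against control the count was 0 in edgeR, 145 in DESeq2, 33 with no filter, and 0 to 894 with 1 library left out, the highest without Tcf1-deficient replicate 2 and 16 without replicate 1. The cause of these changes was not tested. A replicate block gave 1613 and 0 calls, but same-numbered libraries did not deviate together (correlations from -0.050 to -0.014), so the numbers were not read as pairing. Alternatives for length, promoter start, lists and single calls were added after seeing the data. Below about 1 CPM, depth limits what can be said of a gene.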
